A study of Mus musculus with 2 samples.

Results

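Toll-like receptor pathway genes were taken as a fixed list of 34 members: 12 Toll-like receptors, their accessory proteins, TIR adaptors, kinases and TRAF ligases, both NOD receptors, 3 interferon regulatory factors and the deubiquitinase gene Tnfaip3. All 34 were found among 21536 mouse protein-coding genes on mm10 and among 22219 on mm9. The measurement was the position of MEF2A, a MADS-box transcription factor, on the genome of CH12.LX, an immortalized B-cell lymphoma line derived from a female mouse of strain B10.H-2aH-4bp/Wts. A MEF2A antibody was used for chromatin immunoprecipitation and sequencing (ChIP-seq) in 2 biological replicates, each a biosample of its own from this 1 line, and the labels name no treatment, genotype change or second condition; the cells' age is given as unknown. Both replicates form 1 group, so no test between conditions or across samples was possible; reads of the control were not analysed here. The values are peaks called by the authors: 31497 in the optimal set on mm10, selected by irreproducible discovery rate (IDR), a measure of how well ranks repeat between lists, and 16839 in a separate list on mm9. Each peak carries a signal value whose scale the sources used here do not give (median 34.9 and range 6.41 to 535 in the optimal set), so peaks were compared by rank within a list, with rank 1 the strongest. Read depth is unknown.

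Toll-like receptors recognise molecules of microbes, those at the cell surface mainly lipids and proteins and those in endosomes mainly nucleic acids. They signal through the adaptors MyD88 and TRIF to IRAK kinases and TRAF ubiquitin ligases, and from there to NF-kB, AP-1 and interferon regulatory factors. B cells respond directly to several of these ligands with proliferation and antibody secretion, and in them the surface pair RP105 and MD-1, encoded by Cd180 and Ly86, modulates the response to lipopolysaccharide. Peaks show where the factor was found and are no measure of expression.

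The sequences at the summits of chosen member peaks are shown first, so that the motif matches described below can be read in them. Each is read from the mm9 reference, on the strand of the gene, 5′ to 3′, within 50 bp of the summit of an mm9 peak, with bases of annotated untranslated regions left out. Capitals mark exact matches to any of the motifs searched, on either strand; a sequence with no capitals held none. The first 3 are the strongest mm9 peaks of the 3 members that lead the optimal set, and the fourth is the member window with the MEF2 element. The others carry elements of factors downstream of the receptors or of B cell factors. All windows after the third were chosen for holding a match, and some stronger member peaks without one are not shown. Of all 48 member windows, 23 held neither the MEF2 element nor another of the elements counted below.
Cd180, chr13:103483496-103483596, + strand: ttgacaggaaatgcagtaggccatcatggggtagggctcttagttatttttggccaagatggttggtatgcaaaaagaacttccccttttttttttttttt
Irak2, chr6:113618754-113618843, + strand: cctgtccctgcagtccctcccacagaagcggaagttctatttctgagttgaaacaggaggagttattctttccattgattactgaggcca
Ly86, chr13:37437072-37437172, + strand: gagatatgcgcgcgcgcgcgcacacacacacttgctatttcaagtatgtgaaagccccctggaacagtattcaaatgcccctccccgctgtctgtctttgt
Irak2, chr6:113609842-113609942, + strand: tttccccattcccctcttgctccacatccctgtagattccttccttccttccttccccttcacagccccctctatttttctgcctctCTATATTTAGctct
Tnfaip3, chr10:18735217-18735312, - strand: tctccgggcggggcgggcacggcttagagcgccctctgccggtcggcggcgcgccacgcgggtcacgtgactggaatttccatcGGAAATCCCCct
Unc93b1, chr19:3936549-3936649, + strand: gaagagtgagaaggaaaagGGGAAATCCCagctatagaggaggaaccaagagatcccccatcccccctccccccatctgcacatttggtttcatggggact
Tlr9, chr9:106124826-106124926, + strand: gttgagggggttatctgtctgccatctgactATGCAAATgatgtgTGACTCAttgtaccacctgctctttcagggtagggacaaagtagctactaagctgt
Tlr2, chr3:83649216-83649316, - strand: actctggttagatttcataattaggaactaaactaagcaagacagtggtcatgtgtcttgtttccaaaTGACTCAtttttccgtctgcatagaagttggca
Nod2, chr8:91192673-91192773, + strand: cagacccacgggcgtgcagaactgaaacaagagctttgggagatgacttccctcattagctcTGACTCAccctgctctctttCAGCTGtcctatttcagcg
Irf5, chr6:29479175-29479275, + strand: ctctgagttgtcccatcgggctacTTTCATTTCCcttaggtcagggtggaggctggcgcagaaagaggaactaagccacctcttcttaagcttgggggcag
Irak3, chr10:119628408-119628508, - strand: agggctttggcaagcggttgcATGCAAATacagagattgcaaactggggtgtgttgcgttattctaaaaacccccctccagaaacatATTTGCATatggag
In the fourth sequence the capitals are a MEF2 element, CTATATTTAG. In those of Tnfaip3 and Unc93b1 they are NF-kB elements. The Tlr9 window holds the octamer ATGCAAAT followed by the AP-1 element TGACTCA, and the Tlr2 window holds the same AP-1 element. In the Nod2 window an AP-1 element is followed by the E-box CAGCTG. The Irf5 window holds a joint ETS and IRF element in reverse orientation, and the Irak3 window the octamer in both orientations.

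MEF2A peaks lay at 23 of the 34 members in the optimal set, and the strongest were at Cd180, Irak2, Ly86, Tnfaip3, Tlr7 and Nod2. A gene counted when a peak summit lay within 10 kb of one of its transcription start sites (TSSs) or inside the gene. This count of 67.6% stands beside 50.1% of the 21502 other protein-coding genes. On mm9 it was 22 of 34 members (64.7%), against 33.4% of other genes. Of the members, 21 had a peak on both builds, 2 (Irak4 and Tirap) on mm10 only, 1 (Irak1) on mm9 only and 10 on neither. Counting only summits within 1 kb of a TSS left 17 members, against 30.9% of other genes, and counting those within 10 kb of a TSS without the gene body left 22, against 43.8%. The members had a median length of 16102 bp, against 17270 bp for the other genes. The members were chosen with earlier results of these data known, and the other genes were not matched on activity, which was not measured, so the list was given no test.

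**Figure D1:**
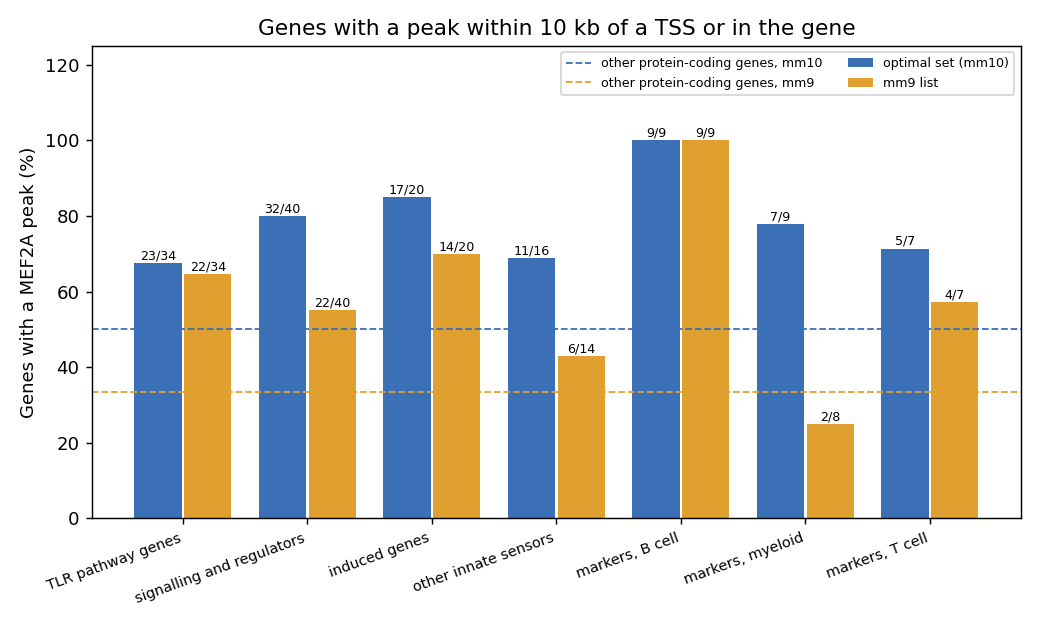
Bars give the percent of genes with a MEF2A peak within 10 kb of a TSS or in the gene, in the optimal set (blue) and in the mm9 list (orange), with counts above each bar; dashed lines give the share of other protein-coding genes in each list. The pathway members stand at 23 of 34 and 22 of 34, above both lines, and the B cell markers at 9 of 9 in each. In the optimal set each other list also stands above its line.

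The strongest peaks of members ranked above those of other genes by their median. The median rank of the strongest peak was 3773 over the 23 members with a peak, against 11518 over the other genes with a peak on mm10, and 3717 against 7806 on mm9. The lists differ in length, and as a share of its own list the members' median lay at 12.0% of the optimal set (other genes 36.6%) and at 22.1% of the mm9 list (46.4%). With summits within 1 kb of a TSS alone it lay at 26.6% of the optimal set (49.6%). In the strongest 10% of the optimal set 10 members had a peak, against 7.23% of other genes, and in that of the mm9 list 5 had one, against 4.14%. In all, 82 optimal peaks were given to members. Some of these intervals overlap, and joined they made 69 sites. The members with a peak had a median of 3 peaks each, and the other genes with a peak 2.

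**Figure D2:**
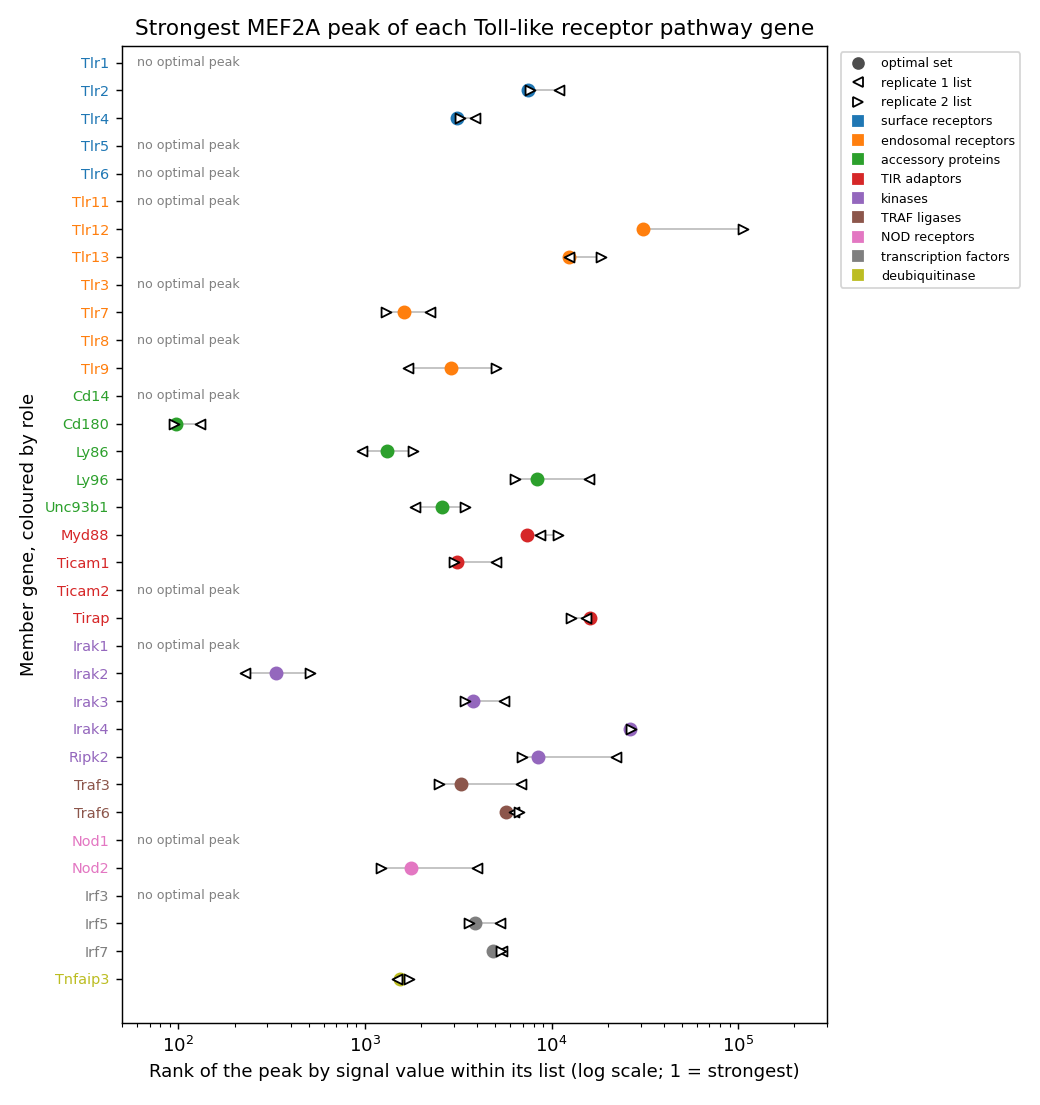
Each row is a member gene coloured by role; the filled circle gives the rank of its strongest peak in the optimal set and the open triangles the best rank of an overlapping interval in the list of replicate 1 (pointing left) and replicate 2 (pointing right), on a log axis with the strongest at the left. Cd180 lies at rank 97, the other members between 334 and 30862, and 11 members have no optimal peak.

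Among the surface receptors, Tlr4 and Tlr2 had peaks and Tlr1, Tlr5 and Tlr6 had none on either build. Tlr4, the lipopolysaccharide receptor, had 3 optimal peaks, the strongest 121 bp downstream of its TSS (chromosome 4, 66827492 to 66827851, mm10; rank 3115, signal 91.0). An overlapping interval ranked 3891 in replicate 1 and 3243 in replicate 2, so both replicates placed it close to its rank in the optimal set. The next Tlr4 peak lay 15937 bp into the gene and ranked 23203 in replicate 1 and 12217 in replicate 2. On mm9 the strongest Tlr4 peak (rank 3524) had its summit in a UTR 60 bp from a TSS. Tlr2, which recognises lipoproteins as a partner of TLR1 or TLR6, had its strongest peak 3520 bp upstream of the TSS (rank 7467) and a weaker one 41 bp downstream of it (rank 17743). The upstream peak ranked 10920 in replicate 1 and 7641 in replicate 2, and the promoter peak 11601 and 23998, so replicate 1 ranked the 2 peaks close together and replicate 2 did not.

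Among the endosomal receptors, Tlr7, Tlr9 and Tlr13 had peaks that both replicates listed, Tlr12 had a weak one and Tlr3, Tlr8 and Tlr11 had none on either build. Tlr9, the receptor of unmethylated CpG DNA, had a peak 34 bp upstream of its TSS (chromosome 9, 106222384 to 106222743; rank 2887, signal 95.0). It ranked 1706 in replicate 1 and 5011 in replicate 2. Other Tlr9 peaks lay 599 bp downstream of the TSS (rank 6072) and 7891 bp downstream of it, beyond the end of the gene (rank 4958). The last ranked 4977 in replicate 1 and 4514 in replicate 2, nearer to each other than those of the promoter peak. Tlr7, a receptor of single-stranded RNA, had its strongest peak 9847 bp upstream of the TSS (chromosome X, 167340241 to 167340600; rank 1618, signal 128), just inside the window of 10 kb. It ranked 2241 in replicate 1 and 1301 in replicate 2. The Tlr7 peak at the TSS itself, 45 bp downstream, was weak (rank 28482), with ranks of 67183 and 47037 in the replicates. Tlr13, a receptor of bacterial ribosomal RNA, had 2 overlapping intervals, the stronger 3595 bp upstream of its TSS (rank 12468; 12385 in replicate 1 and 18469 in replicate 2). The only Tlr12 peak, 64 bp upstream of the TSS, ranked 30862 in the optimal set; no interval of replicate 1 overlapped it, and that of replicate 2 ranked 106346. The mm9 Tlr12 peak (rank 16759) lay 8538 bp upstream, so the peaks of the 2 builds were not at the same place.

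The accessory proteins held the strongest member peak and 3 of the strongest 7. Cd180 encodes RP105, a surface protein with the extracellular fold of a Toll-like receptor. Its peak 85 bp upstream of the TSS (chromosome 13, 102693352 to 102693577; signal 325) ranked 97 in the optimal set, 131 in replicate 1 and 95 in replicate 2. By its strongest peak Cd180 was 64th of the 10798 protein-coding genes with one. A further Cd180 peak 3637 bp upstream (rank 4978) differed more between the replicates, at 2823 and 9622. The gene of its partner MD-1, Ly86, had a peak at a similar distance, 90 bp upstream of its TSS (chromosome 13, 37345075 to 37345434; rank 1311, signal 142; 965 in replicate 1 and 1806 in replicate 2). On mm9 the promoter peaks of Cd180 and Ly86 both had their summit 92 bp upstream of a TSS and ranked 149 and 1502. Unc93b1, which carries the endosomal receptors from the endoplasmic reticulum, had its strongest peak 1441 bp downstream of the TSS (chromosome 19, 3936419 to 3936778; rank 2595, with 1860 in replicate 1 and 3429 in replicate 2) and another 801 bp downstream (rank 6157). The 2 mm9 peaks of Unc93b1 lay in introns. Ly96, which encodes MD-2, the partner of TLR4, had 1 peak 162 bp downstream of its TSS (rank 8368), at 15782 in replicate 1 and 6391 in replicate 2. Cd14, which hands lipopolysaccharide to TLR4, had none, and its nearest optimal summit was 17686 bp away.

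Of the TIR adaptors, Ticam1 had the strongest peak and Ticam2 had none in the optimal set. Ticam1 encodes TRIF, and its only peak lay 110 bp upstream of the TSS (chromosome 17, 56276697 to 56277056; rank 3116, signal 91.0; 5030 in replicate 1 and 3001 in replicate 2). Myd88 encodes the adaptor of most of the receptors. Its stronger peak (rank 7425; 8638 in replicate 1 and 10811 in replicate 2) lay 1079 bp upstream of its TSS and only 69 bp from that of Acaa1a, so it was nearer to the neighbour. The weaker one, 261 bp downstream of the Myd88 TSS, ranked 29749, and 67484 and 53212 in the replicates. Tirap, which bridges TLR2 and TLR4 to MyD88, had a promoter peak at rank 15989 (15250 in replicate 1 and 12685 in replicate 2) and no mm9 peak. Ticam2 links TLR4 to TRIF, and the conservative IDR set held 2 overlapping intervals there, the stronger 36 bp upstream of its TSS at rank 25745 of 28217; 81.7% of conservative intervals were also in the optimal set.

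Irak2 was the kinase gene with the most and the strongest peaks. Irak2 encodes a kinase-like protein of the receptor complex that prolongs signalling to TRAF6, and it had 10 optimal peaks at 9 sites, as did Nod2 at 8 sites. The strongest Irak2 peak (chromosome 6, 113668675 to 113668915; rank 334, signal 244) ranked 228 in replicate 1 and 510 in replicate 2. It lay 30353 bp from the RefSeq TSS, but on mm9, where all protein-coding GENCODE transcripts give TSSs, the strongest peak (rank 289) was in an intron 40 bp upstream of an internal TSS. Another 7 Irak2 peaks lay 21465 to 31473 bp into the gene, 1 lay 6666 bp into it (rank 9275) and 1 lay 31 bp upstream of the RefSeq TSS (rank 6935; 11370 in replicate 1 and 5839 in replicate 2). Irak2 thus had a group of internal peaks, of which 5, the strongest included, ranked higher than the peak at its RefSeq TSS.

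The remaining kinases had fewer or weaker peaks. Irak3 encodes IRAK-M, an inhibitor of the pathway, and had 5 peaks. The strongest (rank 3773; 5573 in replicate 1 and 3420 in replicate 2) lay 6037 bp upstream of Irak3 but 659 bp from the TSS of Tmbim4. The next lay 10197 bp into Irak3 (rank 4617), and the strongest mm9 peak (rank 3752) was in an intron 10257 bp from a TSS. Ripk2, the kinase of the NOD receptors, had 1 peak 3897 bp into the gene (rank 8473), at 22089 in replicate 1 and 6980 in replicate 2, a log2 rank difference of 1.66. Irak4, the first kinase recruited by MyD88, had 1 weak peak 13911 bp into the gene at rank 26453, with no overlapping interval in replicate 1. The conservative set held a different Irak4 interval, 51 bp downstream of the TSS (rank 24662). At Irak1, no interval of the 3 relaxed mm10 lists met the rule, as for 15.7% of protein-coding genes in the pooled list, while the mm9 list had a peak 3 bp from a TSS (rank 14662). Whether the mm10 lists used here are complete around Irak1 is not known, so its lack of an mm10 peak cannot be read as absence of MEF2A there.

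Of the genes further along the pathway, those of both TRAF ligases, Nod2, Irf5, Irf7 and Tnfaip3 had peaks, and Nod1 and Irf3 had none on either build. Tnfaip3 encodes A20, which ends signalling to NF-kB by editing ubiquitin chains. Its strongest peak lay 49 bp upstream of the TSS (chromosome 10, 19015279 to 19015638; signal 131) and ranked 1539 in the optimal set, 1478 in replicate 1 and 1726 in replicate 2, which places it alike in all 3 lists. A second Tnfaip3 peak 2522 bp downstream ranked 3618, and 3033 and 4397 in the replicates. Nod2, the cytosolic receptor of muramyl dipeptide, had its strongest peak 9531 bp upstream (chromosome 8, 88637604 to 88637963; rank 1766), but the TSS of Snx20 was 1651 bp from it. That peak ranked 4001 in replicate 1 and 1215 in replicate 2. The strongest peak inside Nod2, 21477 bp from the TSS, ranked 2696, and 10145 and 1694 in the replicates. Replicate 2 ranked these 2 peaks higher than replicate 1, but another Nod2 peak, 19264 bp from the TSS (rank 13689), went the other way, at 10135 in replicate 1 and 25680 in replicate 2.

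Traf3, a ligase that restrains B cell survival signals and carries signals to interferon, had 1 peak 6138 bp upstream (rank 3256; 6830 in replicate 1 and 2480 in replicate 2). Traf6, the ligase downstream of IRAK kinases, had a peak 15617 bp into the gene (rank 5729; 6298 and 6681) and a weaker one 41 bp upstream of its TSS (rank 19573). The internal peak was the more alike in the 2 replicates. Irf5, a factor activated by MyD88 signalling, had 7 peaks at 5 sites, the strongest 2592 bp from the RefSeq TSS (chromosome 6, 29529037 to 29529396; rank 3885; 5284 in replicate 1 and 3603 in replicate 2). On mm9 the strongest Irf5 peak (rank 4075) was in an intron 57 bp upstream of an internal TSS. Irf7, the factor of type I interferon induction, had its strongest peak 9075 bp upstream (rank 4868; 5410 and 5389), 1212 bp from the TSS of Cdhr5, and 2 overlapping intervals at its own TSS, the stronger at rank 21028.

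**Figure D3:**
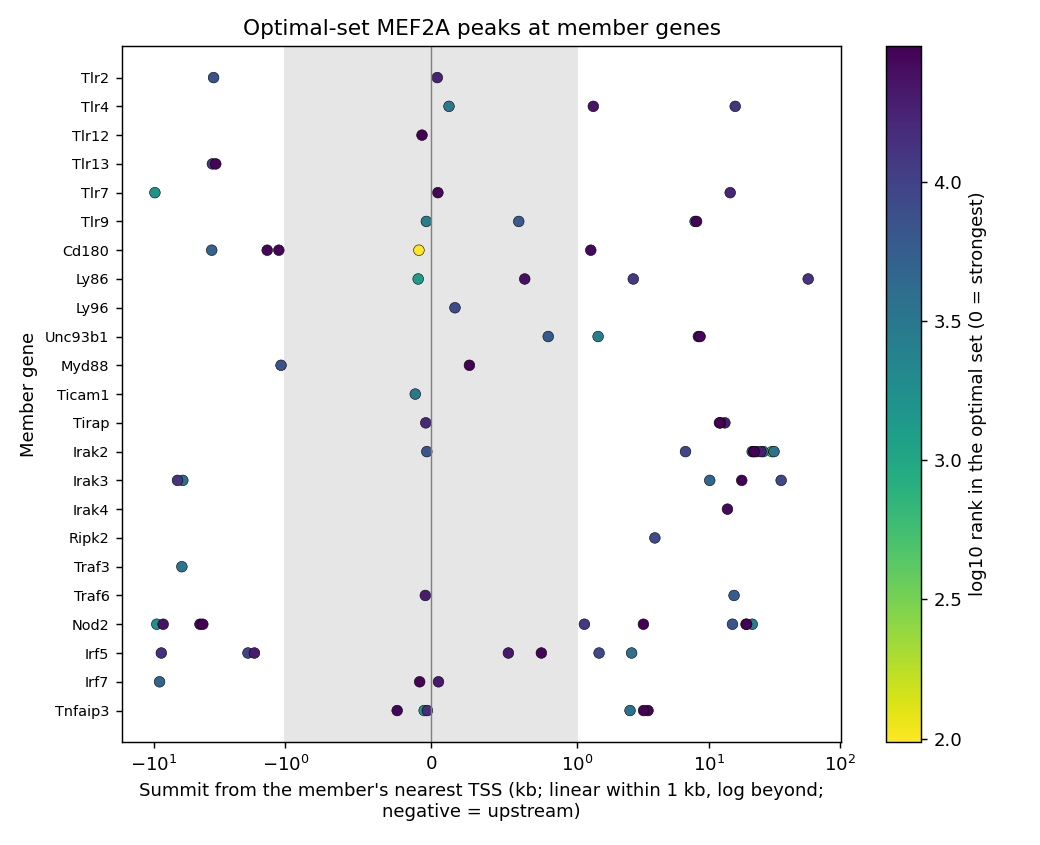
Each point is an optimal peak at the member on its row, placed by the distance of its summit from the nearest TSS of that member in kb (linear in the grey band within 1 kb, log beyond) and coloured by log10 rank, with darker points weaker. The strongest peak of Cd180 lies in the band at 85 bp upstream, and most Irak2 peaks form a group 21465 to 31473 bp downstream.

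By the mm10 TSSs, the strongest peak lay within 1 kb of a TSS for 9 of the 23 members. It lay inside the gene and farther from a TSS for 6, and outside the gene and farther from a TSS for 8. Irak2 and Irf5 are among the 6, although their strongest mm9 summits lay 40 and 57 bp from a TSS of their own. Of the 82 member peaks, 26 (31.7%) lay within 1 kb of any protein-coding TSS, against 24.8% of all optimal peaks. For 5 members (Irak2, Irak3, Irf7, Myd88 and Nod2) the strongest peak was nearer to the TSS of another gene, and 11 member peaks in all were. No member rested only on such peaks. For Irak2 the neighbour was Tatdn2, with a TSS 28230 bp away, and the result rests on the 1 RefSeq TSS of Irak2. The strongest mm9 peak of Irak2 was nearest to an Irak2 TSS. On mm9, where exons could be read, 25 of 48 member peaks had their summit in an intron, 19 outside the gene and 4 in an exon. Apart from the share within 1 kb of any protein-coding TSS, these counts were not compared with other genes or peaks.

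The 11 members without an optimal peak were Tlr1, Tlr3, Tlr5, Tlr6, Tlr8, Tlr11, Cd14, Ticam2, Irak1, Nod1 and Irf3. The nearest optimal summit was 10559 bp from the TSS of Irf3, just outside the window, 17686 bp from that of Cd14, 29591 bp from that of Ticam2, and 36343 to 427673 bp from those of the others. In the relaxed lists, which hold 300000 intervals of peaks and background each, the best interval at Ticam2 ranked 18267 in replicate 1 and 31653 in replicate 2, and that at Irf3 66495 and 26946. At Tlr11 the best ranks were 68112 and 134978, and at Tlr8 229017 and none. For the other genes without an optimal peak, the median best rank was 77088 in replicate 1 and 73826 in replicate 2, where they had an interval at all (73.4% and 71.2%). Of the 11 members, 6 (Ticam2, Nod1, Cd14, Tlr6, Irf3 and Tlr3) ranked above these medians in both replicates and 3 (Tlr1, Tlr5 and Tlr11) in 1 only. Tlr3 did so narrowly, at 75965 and 70062. The share of other genes above both medians is not given, so these counts set the members apart from no other genes. Tlr8 and Irak1 were below them or unlisted in both.

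Both replicates listed most member peaks. Of the 82, 57 (69.5%) overlapped an interval among the strongest 31497 of each replicate's own list, against 64.6% of other optimal peaks. Member peaks that overlap each other can share 1 replicate interval, as those at Tlr9 of ranks 4958 and 29288 did. The member peaks counted here are therefore not all separate matches. The conservative set held an interval with the same coordinates for 55 (67.1%), against 73.2% of other optimal peaks. The strongest peak ranked higher in replicate 1 for 8 members and higher in replicate 2, or only there, for 15. For 3 member peaks (1 each at Irak3, Irak4 and Tlr12) replicate 1 had no interval. Over the 79 member peaks listed in both, the median absolute difference in log2 rank between replicates, without regard to direction, was 0.71, against 0.78 for other optimal peaks. Of 22 neighbouring pairs of members in the order of strongest peaks, 7 stood in the same order in both replicates. Cd180 ranked above Irak2 and Irak2 above Ly86 in both, while no neighbouring pair from Ly86 to Irf5 did so. Neighbours in that stretch, which holds Tnfaip3, Tlr7, Nod2, Unc93b1, Tlr9, Tlr4, Ticam1, Traf3 and Irak3, therefore did not differ beyond the spread between replicates. The optimal set was made from these lists, so this is a description of it.

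**Figure D4:**
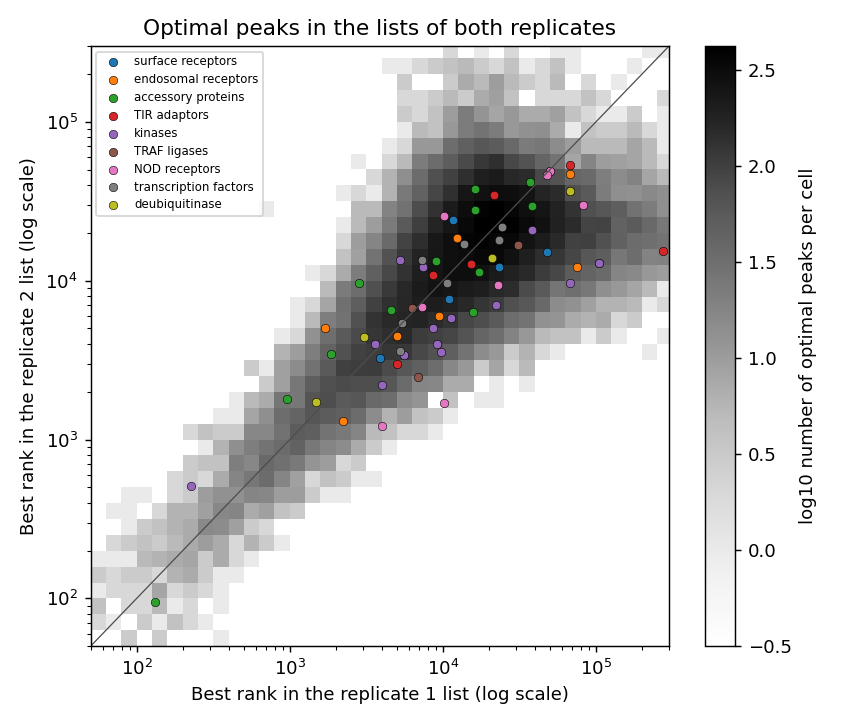
Best rank of an overlapping interval in the list of replicate 1 (x axis) and replicate 2 (y axis), both on log axes; grey cells count all optimal peaks listed in both and coloured points are the 79 member peaks by role, with the diagonal drawn. The member points lie on the grey cloud, with Cd180 at 131 and 95 and Irak2 at 228 and 510.

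Most member summits, like most other mm9 summits, held no MEF2 element. Of 48 mm9 member peaks, 1 (2.08%) held its consensus no farther than 50 bp from the summit, against 7.15% of the 16791 other mm9 peaks and 0.503% of windows of the same length at 45961 protein-coding TSSs. The match was in the Irak2 intron peak (rank 6875) at chr6:113609842-113609942, printed above. The same peak was the only one with the strict form (other peaks 3.64%), and 3 held the shorter core (11.2%), the others at Irak2 and Irak3. The strongest mm9 summits of Cd180, Irak2 and Ly86 held no match to any motif searched. On mm10, RefSeq promoter sequences of GRCm38.p6, of 300 bases each, were held for 27 of the 34 members. Of 35 member promoters, 14 contained an optimal summit, against 13.2% of all 32851 promoters. The 14 belong to 11 members. Promoters of the same gene can overlap, as at Cd180 and Tirap, so a summit can count more than once. None of these 14 held the MEF2 element, which was in 1.84% of all promoters with a summit.

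Elements of NF-kB, AP-1 and IRF factors, which act downstream of the receptors, were counted beside their shares in other mm9 peaks, and no difference was tested. The NF-kB element was in 7 of 48 member windows (14.6%), against 6.98% of other mm9 peaks and 1.51% of TSS windows. Of these, 2 were at Tlr9, 2 at Tnfaip3 and 1 each at Irak2, Ly86 and Unc93b1. The AP-1 element TGANTCA was in 5, or 10.4% (other peaks 12.2%, TSS windows 1.90%), 2 at Tlr4 and 1 each at Tlr2, Tlr9 and Nod2. The joint ETS and IRF element was in 5, or 10.4% (4.38%, 0.759%), 2 at Irf5 and 1 each at Tlr7, Tlr9 and Ripk2. The RUNX element, TGTGGTTA or TGTGGTTT, was in 5, or 10.4% (3.97%, 0.587%), at Irf5, Irf7, Ly86, Tlr4 and Tlr13. The octamer ATGCAAAT was in 2 (3.12%, 0.313%), at Tlr9 and Irak3. Counts for the interferon response element and for the PU.1 and SpiB element were 1 each, or 2.08% (3.60% and 2.14% of other peaks), at Unc93b1 and Tlr4. The AP-1 and interferon response elements were thus no more frequent at members than in other peaks. The E-box CAGCTG was in 3 (9.24%), at Irak2, Irf5 and Nod2, and the EBF1 element and the CRE TGACGTCA in none (1.21% and 1.09%). Both strands were searched and the ETS and IRF element can overlap the interferon response element. In all, 25 member windows held at least 1 of these or the MEF2 element and 23 held none, against 45.1% of other mm9 peaks with at least 1. The median GC content was 48.0% in member windows and 49.5% in the others. An exact match is no proof of a site, and windows without one may hold weaker forms.

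Other genes of the pathway were counted in lists that hold no member. Of 40 further signalling and regulatory genes 32 had an optimal peak (80%, median best rank 5567), strongest at Tnip2 (rank 47), which encodes a partner of A20, Pik3ap1 (rank 166), the adaptor BCAP, and Slc15a3 (337) and Slc15a4 (500), endosomal transporters. Tab2, Tab3, Peli2, Peli3, Sarm1, Tollip, Tax1bp1 and Lbp had none. Of 20 genes induced through the pathway 17 had a peak (85%, median 4912), led by Cd86 (461), Il10 (847), Cd80 (1917) and Bcl3 (2052), and Il6, Ifnb1 and Ptgs2 had none. Of 16 other innate sensors and adaptors 11 had a peak (68.8%) with a median rank of 18591, led by Aim2 (2906) and Zbp1 (4242). On mm9 the counts were 22 of 40, 14 of 20 and 6 of 14, as Cgas and Sting1 were not found there by symbol. Among protein-coding genes other than the members, 50.1% had an optimal peak and 33.4% an mm9 peak. Each of these lists had a larger share with an optimal peak than the members (67.6%).

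Markers of B cells, the labelled cell type, were compared with those of other blood cells. All 9 B cell markers had a peak on both, with a median best rank of 1195 in the optimal set. Of myeloid markers 7 of 9 had an optimal peak, with a median best rank of 18439. On mm9, where Adgre1 was not found by symbol, 2 of 8 had a peak. Of 8 T cell markers 7 were found on each build, and 5 of these had an optimal peak and 4 an mm9 peak. Their median best rank in the optimal set was 9723, with Lck (rank 384) strongest and Cd3e and Cd8a without a peak. These counts stand beside 50.1% of protein-coding genes other than the members in the optimal set and 33.4% on mm9. In the optimal set the myeloid (77.8%) and T cell (71.4%) shares were also above that of the members (67.6%). The part of cell type in the member counts was not tested.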

How the data were processed

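MEF2A ChIP-seq was done in 2 replicates of CH12.LX. The deposited files used were 6 narrowPeak lists, 5 on mm10 and 1 on mm9. Per the texts deposited with them, relaxed lists were called on each replicate and on both together with a control, IDR selection on these gave the optimal and the conservative set, and the mm9 list from the mm9 alignments of both replicates. Peak caller, aligner and versions: not given in the sources used here. Each signal value (column 7) is as deposited by the authors, on a scale set by each call, and was used by rank within a list; the score in the nominal q column, as deposited by the authors, only broke ties. The number of intervals in a relaxed list says nothing of depth, which is unknown.

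Coordinates are 1-based, and none were converted between builds. On mm10, gene spans and TSSs came from RefSeq (GRCm38.p6): promoter starts where given (27 members) plus the outermost gene end, with strand from GENCODE vM1 where needed; 98.4% of 21887 protein-coding genes had a strand. On mm9 (NCBIM37), TSSs of all protein-coding GENCODE vM1 transcripts were used; no peak ended past the reference sequence on any of 20 chromosomes. Replicate matches are overlaps of 1 bp or more, and 8 optimal peaks outside the 21 chromosomes were given to no gene. Every member is named; of other lists the strongest few, and members' nearer neighbour genes. The members and lists were chosen with earlier results of these data known. No test was made: there is 1 group, and the list gets none. Alternatives were other windows, sets, builds, single replicates, overlaps, motif windows and forms. The gene rule and motif search were tested on simulated data and recovered what was planted. The work used Python 3.11.15, numpy 2.4.6, pandas 2.3.3, pysam 0.24.0 and matplotlib 3.10.9.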

Additional observations from a re-analysis of the deposited data

How the results depend on the processing

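The count of 23 members with a peak lay within 1.5 times under each alternative: 17 within 1 kb of a TSS, 22 without the gene body, 29 within 50 kb, 24 by nearest TSS, 22 in the conservative set, 20 in the stronger 50% of the optimal set, 22 on mm9, 24 with either replicate alone, and 23 with the outermost TSS only, an alternative chosen after seeing the data. The count over all protein-coding genes, 10798, fell to 6661 within 1 kb and to 7006 in the stronger 50%, and was 11010 to 11039 with 1 replicate alone. The median best rank of the members with a peak, 12.0% of the list, became 26.6% within 1 kb and 22.1% on mm9. It was 17.0% with replicate 1 alone and 12.9% with replicate 2 alone. The values within 1 kb, on mm9 and with replicate 1 alone differed from 12.0% by more than the SD of the 2 single-replicate values (2.90). That SD rests on 2 values, 1 of them that of replicate 1 alone, so it is a weak measure of spread. The cause was not tested. The 57 member peaks matched in both replicates became 49 with 50% overlap of both intervals and 45 with summits within 100 bp. The 1 member peak with the MEF2 element became 2 within 100 bp of the summit (8.90% of other peaks), 4 over the whole interval (10.3%) and 3 for the core (11.2%), and stayed 1 for the strict form (3.64%). No paired analysis was possible because there is 1 group. Unknown depth limits what the absence of a peak can show.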
